A study of Macaca mulatta with 20 samples.

Results

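MARCKSL1, FAIM3 and KIAA0040 are 3 genes of the 15929 gene names whose probes were tested on microarrays of blood from rhesus macaques before and after irradiation of the thorax. They were chosen by their levels on these same arrays, which earlier results placed below the pre-irradiation level at every time point, so their levels before and after irradiation are given as a description without a test. The comparisons between the days after irradiation were not part of that choice and were tested. The choice did use the arrays of each day, so a gene back at its pre-irradiation level by day 30 would not be among them. The arrays carry 4 probes with these gene names. The probe of MARCKSL1, the probe of FAIM3 and 1 of the 2 probes of KIAA0040 were well above background on 20 of 20 arrays, against a required 5. The other KIAA0040 probe, which lies further along the transcript, was not well above background on any array and was not tested.

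Whole blood of Macaca mulatta was collected 3 days before irradiation (the pre-irradiation group) and 2, 5 and 30 days after a dose of 10 Gy of X-rays to the thoracic region, with 5 arrays in each group. All animals were irradiated and no group of unirradiated animals was analysed here, so the arrays from before irradiation serve as the control. Per the study's methods these were male animals of Chinese origin that received no mitigating drug, the comparisons were paired by animal, and the RNA of 1 array was pooled from 2 animals, which the labels do not identify. Replicate numbers run from 1 to 5 in every group, and same-numbered arrays were treated as pairs. The labels do not say that a replicate number is an animal. The RNA was depleted of globin transcripts and hybridized to Agilent whole human genome arrays, so human probes read macaque transcripts. The share of spots well above background was 50.9% to 67.3% per array.

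MARCKSL1 (MARCKS like 1) is a small protein held at the inner face of the plasma membrane by a lipid anchor, where it binds actin and calmodulin and is released when protein kinase C phosphorylates it. FAIM3, now named FCMR, is the receptor for the Fc part of immunoglobulin M on the surface of lymphocytes. Its older name comes from a reported block of cell death through Fas. KIAA0040 is a gene whose product has no settled function. Blood lymphocytes are among the most radiosensitive cells of the body, while myeloid cells such as neutrophils and monocytes are renewed from the bone marrow.

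The sequence of each measured probe is printed here because it shows which stretch of transcript each value stands for. The probes have 60 bases and lie on the minus strand of chromosome 1 of the human build hg19, as the array annotation places them. The MARCKSL1 probe A_23_P310 (NM_023009) lies at chr1:32799956-32800015, and no reading frame is open across it. Its first 30 bases are shown. The FAIM3 probe A_23_P138125 (NM_005449) lies at chr1:207078364-207078423 and ends with the stop codon of its only open frame, which is in capitals. The measured KIAA0040 probe A_33_P3243069 (NM_001162893) lies at chr1:175129975-175130034, and the unmeasured one, A_24_P79617 (NM_014656), at chr1:175126622-175126681. Whether macaque transcripts match these letters was not examined, and a level of 1 probe is not set against that of another for that reason too.
MARCKSL1, first 30 bases: ttctcctcttaaggccagttgaagatggtc
FAIM3: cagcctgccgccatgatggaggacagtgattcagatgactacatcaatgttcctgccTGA
KIAA0040: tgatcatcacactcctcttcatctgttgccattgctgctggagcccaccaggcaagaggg

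MARCKSL1 was lower than before irradiation in 15 of 15 pairs, and its mean went furthest down at day 30. Levels are log2 processed signals relative to the 75th percentile of the array, so a value of 0 is the brightness of that percentile. For replicates 1 to 5, the levels were -0.34, -0.0053, -0.40, 0.14 and -0.99 before irradiation (mean -0.32 ± 0.44, SD, n = 5). At day 2 they were -1.47, -0.26, -1.51, -0.90 and -1.52 (mean -1.13 ± 0.55). At day 5 they were -1.59, -0.33, -0.99, -0.87 and -2.04 (mean -1.16 ± 0.66). Replicate 2 was the highest array at day 2 and day 5, replicate 5 the lowest, and each of these groups overlapped the pre-irradiation group. At day 30 the levels were -2.39, -0.92, -1.85, -1.55 and -1.48 (mean -1.64 ± 0.54), and 4 of the 5 arrays lay below the lowest pre-irradiation array. The mean log2 change within pairs was -0.81 ± 0.40 (SD, n = 5) at day 2, -0.84 ± 0.38 at day 5 and -1.32 ± 0.62 at day 30. On the linear scale these means correspond to 57.0%, 55.8% and 40.2% of the level before irradiation. With normexp background correction the changes at days 2 and 30 were -0.36 and -0.72.

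FAIM3 was lower than before irradiation in 15 of 15 pairs as well, by less than MARCKSL1 on average at each day, an order that turns at days 2 and 30 with normexp background correction (-0.65 against -0.36 and -0.84 against -0.72). Its levels in replicates 1 to 5 were 1.03, 1.68, 1.64, 2.09 and 1.46 before irradiation (mean 1.58 ± 0.38, SD, n = 5). At day 2 they were 0.47, 1.43, 0.36, 1.30 and 0.89 (mean 0.89 ± 0.48), and at day 5 they were 0.65, 1.13, 1.08, 1.37 and 0.58 (mean 0.96 ± 0.34). At day 30 they were -0.24, 1.08, 0.65, 1.28 and 0.22 (mean 0.60 ± 0.62). Replicate 1 was the lowest array both before irradiation and at day 30, and replicate 4 was the highest before irradiation, at day 5 and at day 30. The groups overlapped on every day, and 3, 2 and 3 arrays of days 2, 5 and 30 lay below the lowest pre-irradiation array. Within pairs the mean log2 change was -0.69 ± 0.38 at day 2, -0.62 ± 0.19 at day 5 and -0.98 ± 0.29 at day 30 (SD, n = 5). These are 62.1%, 65.2% and 50.7% of the level before irradiation.

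KIAA0040 was lower in 15 of 15 pairs and stood at a like mean on all 3 days. The levels of replicates 1 to 5 were 5.30, 5.10, 5.28, 5.70 and 5.03 before irradiation (mean 5.28 ± 0.26, SD, n = 5). They were 4.43, 4.67, 3.89, 4.91 and 4.78 at day 2 (mean 4.54 ± 0.40) and 4.02, 4.54, 4.56, 4.90 and 4.09 at day 5 (mean 4.42 ± 0.37). No array of day 2 or day 5 reached the lowest pre-irradiation array, which holds for 1.09% of all probes at day 2 and 0.316% at day 5. At day 30 the levels were 4.01, 4.29, 4.53, 5.48 and 4.38 (mean 4.54 ± 0.56), and replicate 4 alone lay within the pre-irradiation range. That replicate was the highest array of KIAA0040 in all 4 groups. The mean log2 change within pairs was -0.75 ± 0.44 at day 2, -0.86 ± 0.27 at day 5 and -0.75 ± 0.39 at day 30 (SD, n = 5), or 59.7%, 55.0% and 59.6% of the level before irradiation. With normexp background correction the day 2 change was -1.16. The unmeasured KIAA0040 probe gave log2 values of -6.24 to -5.21, which are at background.

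**Figure D1:**
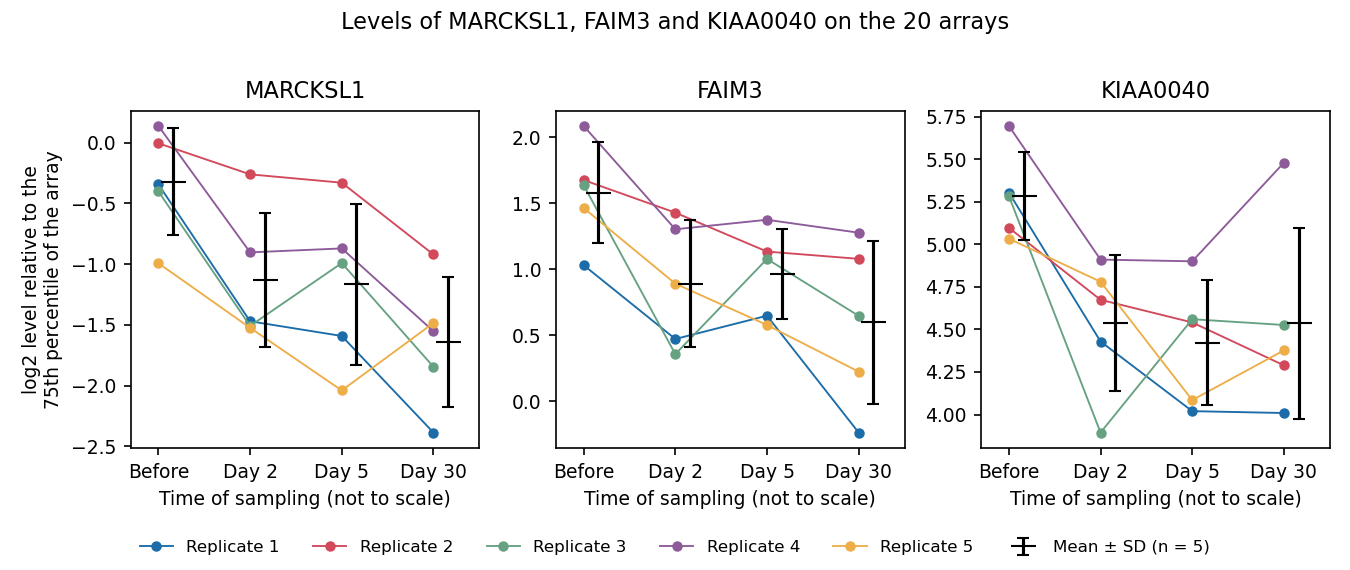
Level of each gene on each of the 20 arrays (y axis, log2 processed signal relative to the 75th percentile of the array) by time of sampling (x axis, not to scale); colored lines join arrays of the same replicate number and black marks give the mean ± SD of 5 arrays. Each line lies below its first point at every later time, and MARCKSL1 and FAIM3 have their lowest mean at day 30.

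These counts need the background of all probes. Of 19941 probes with all pairs measured, 132 (0.662%) were lower in 15 of 15 pairs and 0.888% were higher in 15 of 15, and nothing is read from the 3 genes being among the former, since that is how they were picked. By single day, 8.19%, 5.86% and 10.5% of probes were lower in 5 of 5 pairs at days 2, 5 and 30. Called here means a limma p-value under 0.005 with an FDR under 10% over all 19961 probes tested. Limma called 0.0601% of probes at day 2 (12 probes), 0% at day 5 and 0% at day 30, while 2230 and 3496 probes had an unadjusted p-value under 0.05 at days 5 and 30.

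The size of the change within a pair did not put the genes in a fixed order. At day 2 the largest decrease of the 3 within a pair was that of MARCKSL1 in 2 pairs, of KIAA0040 in 2 and of FAIM3 in 1. At day 5 it was KIAA0040 in 3 pairs and MARCKSL1 in 2. At day 30 it was MARCKSL1 in 4 pairs and FAIM3 in 1. The range over pairs was wide at day 30, from -2.04 to -0.49 for MARCKSL1, from -1.27 to -0.60 for FAIM3 and from -1.30 to -0.22 for KIAA0040 (log2 change).

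The comparisons between days ask whether the lower levels deepened or partly recovered between 2 and 30 days. A full return by day 30 was left out by the choice of the genes. Limma called none of the 3 genes in any of them, where it called 0% of probes between days 2 and 5, 0.0501% between days 2 and 30 (10 probes) and 0% between days 5 and 30. The numbers of probes with an unadjusted p-value under 0.05 were 711, 2563 and 1693. From day 2 to day 30 the MARCKSL1 level was lower by a further log2 difference of -0.50 (SE 0.17, 95% interval -0.91 to -0.10, adjusted p = 0.364), lower in 4 of 5 pairs. This interval leaves out 0, but the difference did not pass the threshold over all probes. From day 5 to day 30 the MARCKSL1 difference was -0.47 (SE 0.24, 95% interval -1.03 to 0.08, adjusted p = 0.608). It was lower in 4 of 5 pairs and higher by 0.55 in replicate 5, whose day 5 level was the lowest of its group. Between days 2 and 5 the MARCKSL1 difference was -0.03 (95% interval -0.47 to 0.40, adjusted p = 0.995).

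FAIM3 at day 30 differed from day 5 by -0.36 on the log2 scale (SE 0.19, 95% interval -0.80 to 0.07, adjusted p = 0.608). It was lower in 5 of 5 pairs, as were 5.88% of all probes in that comparison. Against day 2, the FAIM3 difference at day 30 was -0.29 (SE 0.19, 95% interval -0.73 to 0.15, adjusted p = 0.525), lower in 4 of 5 pairs, and between days 2 and 5 it was 0.07 (95% interval -0.39 to 0.53, adjusted p = 0.986). For KIAA0040 the differences were -0.12 from day 2 to day 5 (95% interval -0.62 to 0.39, adjusted p = 0.977), -0.0013 from day 2 to day 30 (95% interval -0.52 to 0.52, adjusted p = 0.999) and 0.11 from day 5 to day 30 (95% interval -0.32 to 0.55, adjusted p = 0.866). With the scaling used here, the mean of KIAA0040 was thus no nearer to its pre-irradiation level at day 30 than at day 2. The interval allows a shift of up to 0.52 either way. With quantile, median or GAPDH scaling, normexp background correction or the deposited log2 values, the difference was above 0, up to 0.25 with normexp.

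**Figure D2:**
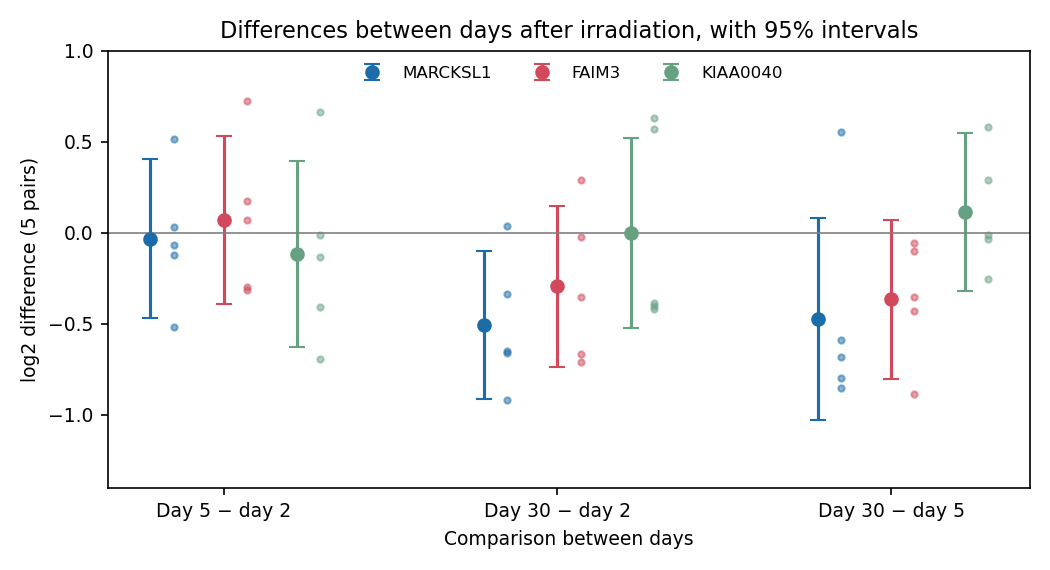
Log2 difference between days after irradiation (y axis) for each comparison (x axis); large points with bars are the limma estimate and its 95% interval, and small points are the 5 pairs. All intervals but that of MARCKSL1 from day 2 to day 30 include 0, and none of the 9 differences passed the threshold over all probes.

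Arrays with a low level of 1 gene tended to be low in the others. Over the 20 arrays the Pearson correlation was 0.84 for MARCKSL1 and FAIM3, 0.81 for FAIM3 and KIAA0040 and 0.66 for MARCKSL1 and KIAA0040. With the mean of each group removed, so that only the differences among the 5 arrays of a group count, the values were 0.72, 0.76 and 0.47. These are descriptions over arrays that share animals and a scaling. The values over the 20 arrays include the differences between groups by which the genes were chosen. In the ranking of 15913 genes by their correlation with FAIM3, MARCKSL1 took place 21 and KIAA0040 place 36, whereas KIAA0040 took place 626 in the ranking by MARCKSL1.

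**Figure D3:**
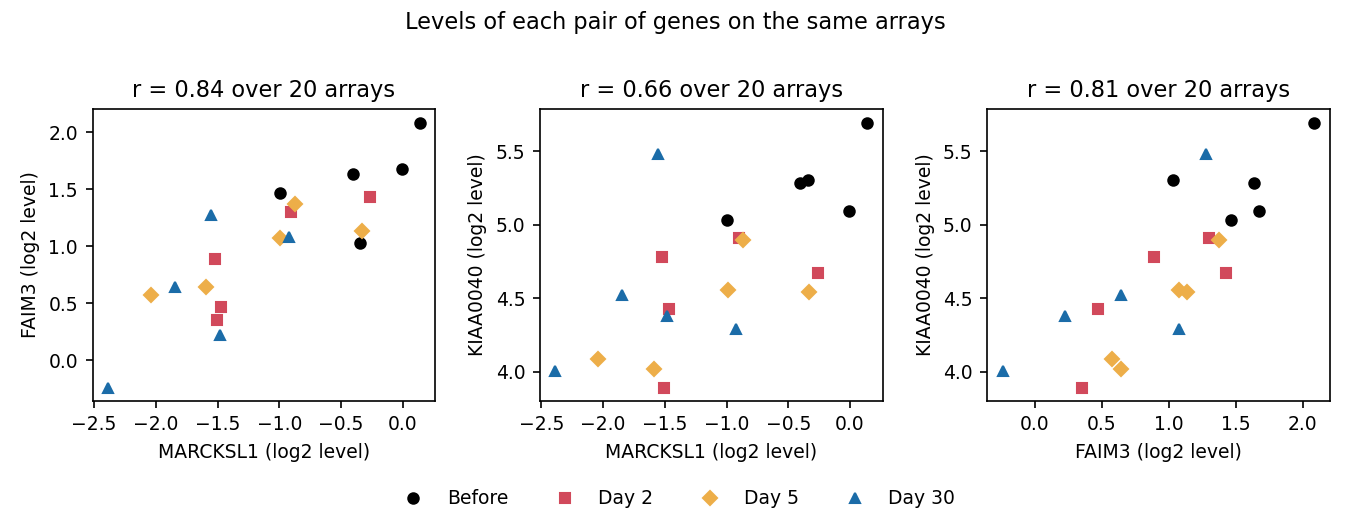
Levels of each pair of genes on the same array (both axes, log2 processed signal relative to the 75th percentile of the array) for the 20 arrays, with symbols by time of sampling. The correlation is 0.84, 0.66 and 0.81 from left to right, and the pre-irradiation arrays lie toward the upper right.

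The genes most like each member were named as the 5 with the highest Pearson correlation over the 20 arrays among 15913 genes. For MARCKSL1 these were WDR77 (r = 0.92), a partner of the arginine methyltransferase PRMT5, MAGOHB (0.90), a protein of the exon junction complex, CARKD (0.90), an enzyme that repairs hydrated NADH, FMNL3 (0.89), a formin that shapes actin, and SSBP2 (0.89), which binds single-stranded DNA. Of these, 4 were also among the first 5 after group means were removed. For FAIM3 they were VAPA (0.89), a tether of the endoplasmic reticulum, RIOK1 (0.88), a kinase of ribosome assembly, EHMT2 (0.88), a histone H3 methyltransferase, TAPT1-AS1 (0.88), an antisense RNA, and BMI1 (0.86), a Polycomb protein. None of the 5 was among the first 5 after group means were removed. For KIAA0040 they were PEX11A (0.91), a peroxisome protein, SYNCRIP (0.90), an RNA-binding protein, SLC25A36 (0.89), a mitochondrial nucleotide carrier, BMI1 (0.88), and ZEB1 (0.88), a repressor of transcription, and of these PEX11A was among the first 5 after group means were removed. BMI1 is the gene that 2 of these lists share, and its mean log2 change was -0.53, -0.51 and -0.64 at days 2, 5 and 30. With 68, 51 and 47 genes correlated above 0.8 with MARCKSL1, FAIM3 and KIAA0040, the first 5 are separated from the next by little.

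The paralog of MARCKSL1 had a mean above its pre-irradiation level on each day. MARCKS, the founding member of the family, had levels of 3.40, 2.54, 2.48, 2.12 and 2.09 in replicates 1 to 5 before irradiation and of 4.19, 2.71, 2.73, 3.14 and 3.32 at day 30. It was higher in 5 of 5 pairs at day 30, as were 7.41% of all probes, with a log2 change of 0.69 (SE 0.21, adjusted p = 0.178), and its changes at days 2 and 5 were 0.42 (SE 0.21, adjusted p = 0.386) and 0.20 (SE 0.31, adjusted p = 0.835). None of these passed the test. Over the alternative scalings and the other settings run, the MARCKS change stayed above 0 except at day 5 without replicate 5 (-0.15), but at day 2 it was as low as 0.044, with normexp background correction. The change of MARCKSL1 minus that of MARCKS in the same pair was -1.23 ± 0.68 at day 2, -1.04 ± 1.10 at day 5 and -2.01 ± 0.74 at day 30 (SD, n = 5), below 0 in 5, 4 and 5 of 5 pairs. Since the MARCKSL1 side of this difference was used to pick the gene, it is given without a test.

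**Figure D4:**
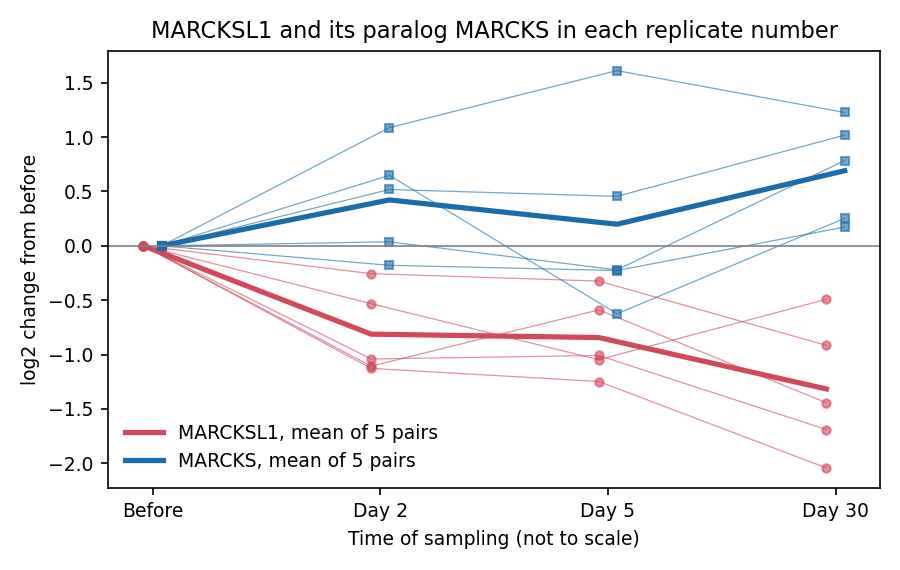
Log2 change from the pre-irradiation array of the same replicate number (y axis) for MARCKSL1 and MARCKS by time of sampling (x axis, not to scale); thin lines are the 5 replicate numbers and thick lines their mean. At day 30 the MARCKSL1 changes lie between -2.04 and -0.49 and all MARCKS changes are above 0.

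Around MARCKSL1, 13 of 14 listed genes of its family, of protein kinase C and of calmodulin were tested, and none was called on any day. Their median log2 change was 0.04, -0.16 and 0.01 at days 2, 5 and 30, of which the first and last turn sign with GAPDH scaling, beside a median over all probes of -0.04, 0.03 and -0.02. At day 30, 6 of them were lower and 7 higher. The lowest was PRKCQ, the protein kinase C of T cell receptor signaling, at -0.71 (SE 0.18, adjusted p = 0.147, lower in 5 of 5 pairs), and the highest was MARCKS.

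Around FAIM3, the genes of its ligand and its relatives could be followed only in part. IGHM, the heavy chain of its ligand immunoglobulin M, and IGHD have no probe under these names, and PIGR and FCAMR, which also bind immunoglobulin M, were not tested. The other 8 of 12 genes for the J chain and receptors of immunoglobulin had a median log2 change of -0.18, -0.16 and 0.23 at days 2, 5 and 30, and none was called. At day 30 the lowest of them was FCER2, the low-affinity receptor for immunoglobulin E on B cells, at -0.57 (SE 0.24, adjusted p = 0.268), and the highest was FCGR2B, the inhibitory Fc gamma receptor, at 0.64 (SE 0.29, adjusted p = 0.298). Of 12 genes of the Fas death receptor pathway, 11 were tested and none was called, with median changes of 0.12, 0.08 and 0.24, of which the first turns sign with GAPDH scaling and the second with median scaling. FAS itself, the receptor, had changes of 0.59 (SE 0.25, adjusted p = 0.329), 0.19 and 0.28 at days 2, 5 and 30 and was higher in 5 of 5 pairs at day 2, as were 6.17% of all probes. FASLG, the ligand of FAS, is named after its values were seen, and it had a log2 change of -1.57 (SE 0.22, adjusted p = 0.132) at day 2, lower in 5 of 5 pairs, and a difference of 1.80 (SE 0.22, adjusted p = 0.124) from day 2 to day 30, higher in 5 of 5 pairs. The lowest of that list at day 30 was FAIM2, another inhibitor of Fas signaling, at -0.34 (SE 0.21, adjusted p = 0.442).

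Markers of B and T cells had means below their pre-irradiation level beside the 3 genes, and those of monocytes and neutrophils had means above it, with no marker of these 4 lists called. Levels in whole blood are relative to the array. Fewer cells of a type, less RNA per cell and more RNA from other cells therefore cannot be told apart. All 14 tested B cell markers of 16 had a mean below 0 at day 2 and at day 5 and 12 did at day 30, with a median log2 change of -0.48, -0.49 and -0.37. For the 18 T cell markers 18, 17 and 18 were below 0, with medians of -0.51, -0.31 and -0.45. Lower in 5 of 5 pairs were 7, 6 and 3 of the B cell markers and 10, 4 and 8 of the T cell markers. CD79A, a chain of the B cell receptor complex, was at -0.58, -0.62 and -0.65 (adjusted p = 0.234, 0.338 and 0.214). At day 30 the lowest and highest B cell markers were CD72, an inhibitory co-receptor, at -1.34 (SE 0.20, adjusted p = 0.126), and EBF1, a transcription factor of the lineage, at 0.13, and the T cell extremes were CD4 at -0.72 (SE 0.20, adjusted p = 0.165) and CD5 at -0.12. MS4A1 and PAX5 of the B cell list were not tested.

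The summed levels of the B cell, T cell and neutrophil lists overlapped between the groups. As multiples of the 75th percentile of the array, the summed B cell markers ranged over 113.4 to 227.1 before irradiation, 96.2 to 178.7 at day 2, 111.3 to 135.5 at day 5 and 74.8 to 141.6 at day 30. The T cell sums were 184.4 to 268.7 before, 128.5 to 211.9 at day 2, 117.3 to 288.6 at day 5 and 122.8 to 215.6 at day 30. The neutrophil sums were 129 to 467.3 before and 346.5 to 1432 at day 30. All 14 B cell and all 18 T cell markers tested were well above background on every array. The part of these lists in the levels of the 3 genes was not tested.

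Of 10 genes of naive and resting lymphocytes, 8, 9 and 9 were below 0 at days 2, 5 and 30, with a median log2 change of -0.32, -0.37 and -0.38. IL7R, the interleukin 7 receptor, was lowest at day 30 (-0.64, SE 0.23, adjusted p = 0.223). The list of natural killer cells had medians of -1.34, -0.72 and -0.02 and so stood near its starting level at day 30. Its summed level was 64.0 to 143.4 before irradiation, 26.0 to 62.0 at day 2 and 94.1 to 195.3 at day 30. In it KLRB1, a lectin-like receptor, fell at day 2 by 1.67 on the log2 scale (SE 0.21, adjusted p = 0.0965) and rose from day 2 to day 30 by 2.29 (SE 0.26, adjusted p = 0.0940). KLRD1, which forms the receptor that reads HLA-E, rose over the same interval by 1.43 (SE 0.16, adjusted p = 0.0940). These were the only calls over the 116 tested genes of all lists and 6 comparisons, and they did not hold under all settings. Of 17 alternatives, 8 kept the KLRB1 call at day 2 (adjusted p = 0.0238 to 0.428), 9 its call from day 2 to day 30 (0.00560 to 0.442) and 9 that of KLRD1 (0.0403 to 0.621). All 3 calls were lost with normexp background correction, no filter, no replicate block, the slide as a block, and without replicate 1, 3, 4 or 5, and that of KLRB1 at day 2 with quantile normalization too. At day 30 KLRB1 was highest of the list at 0.62 (SE 0.17, adjusted p = 0.161), and PRF1, perforin, was lowest at -0.51 (SE 0.26, adjusted p = 0.350).

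Of 9 tested monocyte markers and 9 tested neutrophil markers, all had a mean above 0 on all 3 days. The median log2 change was 0.58, 0.38 and 0.73 for monocytes and 0.997, 0.96 and 1.37 for neutrophils. At day 30 the monocyte extremes were FCN1 at 0.26 (adjusted p = 0.680) and CD86 at 1.29 (SE 0.43, adjusted p = 0.200), and the neutrophil extremes were MMP9 at 0.42 (adjusted p = 0.686) and LCN2, a granule protein, at 2.56 (SE 0.72, adjusted p = 0.164). The 7 tested platelet markers had a median of 1.47 at day 2, 0.46 at day 5 and -0.13 at day 30, where TREML1 was at -0.53 (adjusted p = 0.242) and PPBP at 0.09. The 8 erythroid genes were at -0.22, 0.11 and -0.84, with SLC4A1 at -2.12 (SE 0.76, adjusted p = 0.221) and AHSP at -0.02 at day 30. GAPDH, a glycolytic enzyme of all cells, had log2 changes of 0.19, 0.06 and 0.04 (adjusted p = 0.612, 0.919 and 0.939).

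Set against the lymphocyte markers of the same pair, the 3 genes were lower still at day 30 than the median B cell marker. Here the change of a list is that of its median level per array, not the median of its markers' changes given above. The difference of the log2 changes was -0.99 ± 0.43 for MARCKSL1, -0.66 ± 0.45 for FAIM3 and -0.42 ± 0.28 for KIAA0040 (SD, n = 5), below 0 in 5 of 5 pairs for each. At day 2 the same difference was -0.39 ± 0.47, -0.27 ± 0.46 and -0.32 ± 0.34, and at day 5 it was -0.34 ± 0.51, -0.11 ± 0.49 and -0.36 ± 0.39, below 0 in 3 or 4 of 5 pairs. Of these day 2 and day 5 values, each was smaller than its SD. Against the median T cell marker the day 30 values were -0.69 ± 0.37, -0.36 ± 0.37 and -0.12 ± 0.34, below 0 in 5, 4 and 2 pairs. On this measure FAIM3 and KIAA0040 at day 30 differed from the T cell list by less than the spread between pairs. So did all 3 genes at days 2 and 5, at -0.30 ± 0.37, -0.17 ± 0.54 and -0.23 ± 0.59 and then -0.40 ± 0.59, -0.18 ± 0.33 and -0.42 ± 0.54. The median of the T cell markers' own changes at day 30 was -0.45, beside -0.98 for FAIM3 and -0.75 for KIAA0040. Against the median natural killer cell marker the mean differences were 0.77 ± 0.92, 0.90 ± 0.80 and 0.84 ± 1.02 at day 2 and -1.14 ± 1.09, -0.80 ± 0.50 and -0.57 ± 0.76 at day 30. Against the naive and resting list the day 30 differences were -1.08 ± 0.38, -0.75 ± 0.55 and -0.51 ± 0.35, below 0 in 5 of 5 pairs for each gene. The members' side of these differences chose the genes, so they carry no test.

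**Figure D5:**
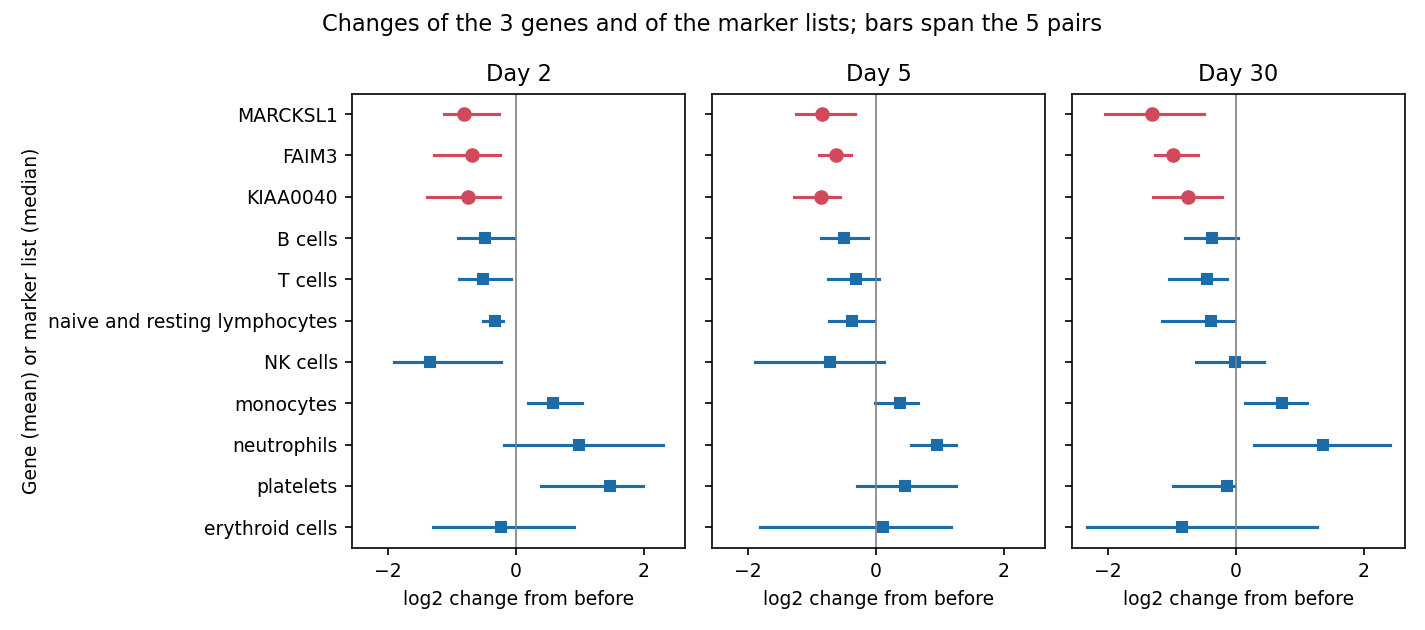
Log2 change from before irradiation (x axis) at days 2, 5 and 30 for the 3 genes (red, mean and range of 5 pairs) and for 8 marker lists (blue, median over the genes and range of that median over 5 pairs). The 3 genes lie at or below the medians of the B and T cell lists on each day, while the monocyte and neutrophil medians lie above 0.

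Across the 20 arrays the level of MARCKSL1 was most closely followed by the median level of the T cell list (r = 0.82, or 0.77 with group means removed) among the lymphocyte lists, and KIAA0040 by that of the B cell list (0.75, or 0.64). MARCKSL1 correlated at 0.67 with the naive and resting list, and at 0.75 with group means removed, which is close to its value for the T cell list. FAIM3 correlated at 0.74 with the B cell list and at 0.70 with the T cell list (0.74 and 0.57 with group means removed). All 3 ran against the neutrophil list, at -0.71, -0.82 and -0.62 (-0.64, -0.79 and -0.59 with group means removed). Against the monocyte list they were at -0.72, -0.70 and -0.67 (-0.65, -0.58 and -0.66 with group means removed). Against the Fas pathway list the values were -0.75 for MARCKSL1, -0.85 for FAIM3 and -0.66 for KIAA0040 (-0.66, -0.79 and -0.51 with group means removed). Against the list of the MARCKS family, protein kinase C and calmodulin they were -0.56, -0.65 and -0.61 (-0.72, -0.79 and -0.72). These correlations are descriptions over arrays that share animals. Those without group means removed include the differences between groups by which the genes were chosen.

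The 3 genes lie on 1 chromosome in the human build and in the macaque reference annotation, and the neighbours of each in the macaque gene order were looked up. HDAC1, a histone deacetylase, and LCK, the kinase of the T cell receptor, follow MARCKSL1. LCK was lower in 5 of 5 pairs on each day, at -0.71, -0.60 and -0.69, with levels of 4.18, 3.64, 3.73, 3.98 and 3.44 before irradiation and 2.71, 3.38, 2.80, 3.43 and 3.20 at day 30, where no array reached the lowest pre-irradiation array, as for 1.19% of all probes. HDAC1 was at -0.26, -0.23 and -0.11. TSSK3, a kinase of the testis on the other side, was at 1.05, 0.72 and 0.98. Beside FAIM3, IL24 was the tested gene, at -0.55, -0.32 and -0.50, and IL19, IL20 and PIGR were not tested. Beside KIAA0040, MRPS14, of the mitochondrial ribosome, was at -0.20, 0.08 and 0.05, and TNR, an extracellular matrix protein, at 0.38, 0.54 and 0.53. None of these neighbours was called.

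The arrays lay on 5 slides of 4 arrays, each slide with 1 array of each group, always at the same position for a group, so position and group cannot be told apart. Most arrays that meet on a slide have different replicate numbers, but on slide 1 the pre-irradiation and day 5 arrays are both of replicate 2. On slide 3 the day 5 and day 30 arrays are both of replicate 5, and on slide 5 the day 2 and day 30 arrays are both of replicate 3. The comparison of day 5 with pre-irradiation on slide 1 is therefore also 1 of the pairs. Within slides, MARCKSL1 was lower than before irradiation on 4, 5 and 5 of 5 slides at days 2, 5 and 30. FAIM3 was lower on 4, 4 and 4 slides, and KIAA0040 on 5, 5 and 4. These counts use the same arrays by which the genes were chosen, so they are a description without a test. Precision is limited by the number of arrays.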

How the data were processed

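Whole blood RNA of 20 samples was measured on one-color arrays. For each array the authors deposited a Feature Extraction file (version 12.0.2.2 per the file headers, 10.7 per the submitters' processing notes), whose processed signal intensity is background subtracted and not scaled between arrays. Deposited alongside were log2 values for 5884 probes, equal to the log2 processed signal shifted by an array-wide constant (100% of single-spot probes within 0.001) with column medians of 7.55 to 7.83; the centring behind that constant is not known.

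Here the log2 processed signal was taken without control and outlier spots, spots of a probe were averaged, and the 75th percentile of all non-control spots was subtracted. A probe was tested if it stood well above background on 5 arrays or more (19961 of 34127) and had a value in 4 or more of the 5 pairs. Each pair of groups was fitted in limma 3.58.1 (R 4.3.3) blocked on the replicate number, and called at p under 0.005 and Benjamini-Hochberg FDR under 10%. The study's methods pair by animal, and the replicate number was taken here to stand for the animal. Deviations of same-numbered arrays from their group means correlated at -0.22 to 0.70, above 0.1 in 24 of 30 pairs. The highest was that of replicate 2 between day 5 and pre-irradiation, and the lowest that of replicate 3 between day 30 and day 2. In each of these pairs both arrays lay on the same slide, so slide and replicate number cannot be told apart there. In 17 of the 30, the later array correlated best with the earlier array of its own number. Between day 30 and pre-irradiation the correlations for replicates 1 to 5 were 0.12, 0.40, 0.45, 0.061 and 0.039. P-values measure the spread between these samples. The step was tested on simulated data.

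The members and the gene lists were chosen with earlier results of these data known. Named genes are all probes of the 3 genes, the 5 genes most correlated with each, called genes and the day 30 extremes of each list, MARCKS, IGHM, FAS, MS4A1, CD79A and GAPDH. Where a gene has several probes, the one with the highest mean signal was used. LCK and the other neighbours come from the gene order. Some genes that this rule names are not reported here.

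Alternatives were quantile, median and GAPDH scaling, normexp background correction (offset 50), the deposited log2 values, outlier spots kept, no filter, probes well above background on all 20 arrays (15339), no replicate block, 1 fit of all arrays, slide as a block, an intensity trend, and each replicate left out. Blood counts and qRT-PCR were not analysed here. Figures were drawn with Python 3.11.15 and matplotlib 3.10.9.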

Additional observations from a re-analysis of the deposited data

Results flagged for a closer look

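In the change of MARCKSL1 from day 5 to day 30, replicate 5 stood apart from the other 4 pairs. Its log2 change was 0.55, while the others were lower, and its gap to the nearest of them took a share of 0.813 of the range, above the limit of 0.71 for 5 values. Of 30 groups of values examined this was the 1 that passed, and chance flags about 1 in 20.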

How the results depend on the processing

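The changes of MARCKSL1, FAIM3 and KIAA0040 from before irradiation kept their direction under all alternatives run, 98 of 99 within the spread between pairs. With normexp background correction the MARCKSL1 change at day 2 was -0.36, that of MARCKSL1 at day 30 was -0.72 in place of -1.32 and that of KIAA0040 at day 2 was -1.16 in place of -0.75. With 1 replicate left out they ranged from -0.95 to -0.73, -0.97 to -0.74 and -1.52 to -1.14 at days 2, 5 and 30 for MARCKSL1, from -0.80 to -0.54, -0.67 to -0.55 and -1.08 to -0.91 for FAIM3, and from -0.87 to -0.58, -0.94 to -0.76 and -0.88 to -0.61 for KIAA0040. No alternative brought a difference between days past the threshold. Their lowest adjusted p was 0.264, for MARCKSL1 from day 2 to day 30 (range 0.264 to 0.798). Without the replicate block the MARCKSL1 difference from day 2 to day 30 stayed at -0.50 with an adjusted p of 0.624. From day 2 to day 5, the sign turned for MARCKSL1 with GAPDH scaling (0.10), for FAIM3 with median scaling (-0.071) and for KIAA0040 with GAPDH scaling (0.012) and normexp (0.29). From day 2 to day 30 it turned for KIAA0040 with quantile normalization (0.0043), median scaling (0.040), GAPDH scaling (0.15), normexp (0.25) and the deposited values (0.0036), and from day 5 to day 30 with normexp (-0.041). These are differences near 0 that were not called. With 1 replicate left out, the differences from day 2 to day 5 were -0.17 to 0.090 for MARCKSL1, -0.090 to 0.17 for FAIM3 and -0.31 to 0.029 for KIAA0040. Those from day 2 to day 30 were -0.64 to -0.40, -0.44 to -0.19 and -0.16 to 0.10, and those from day 5 to day 30 were -0.73 to -0.38, -0.44 to -0.23 and -0.0013 to 0.21.

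The number of called probes at day 2, which is 12, was 0 with quantile normalization, no filter or no replicate block, 115 with GAPDH scaling, 3 with normexp, 327 with the deposited values, 190 with probes well above background on all arrays, 343 with all arrays in 1 fit, 1 with the slide as a block and 200 with an intensity trend. At day 30, where it is 0, it was 2 with GAPDH scaling, 955 with normexp, 334 with the deposited values, 695 with probes well above background on all arrays, 121 with all arrays in 1 fit and 451 with an intensity trend. From day 2 to day 30, where it is 10, it was 25 with GAPDH scaling, 57 with the deposited values and 0 with no filter or the slide as a block. It was 26 with probes well above background on all arrays, 4 with no replicate block and 164 with all arrays in 1 fit. The number of probes tested also differed. It was 5653 for the deposited values at days 2 and 30, and 5727 from day 2 to day 30. It was 15339 for probes well above background on all arrays and 34127 with no filter, against 19961 in the main setting. With 1 replicate left out the counts were 0 to 588 at day 2 (588 without replicate 2), 0 to 66 from day 2 to day 30 (66 without replicate 2) and 0 to 2 from day 5 to day 30 (2 without replicate 5). The median change of the Fas list at day 2 turned to -0.068 with GAPDH scaling. Medians moved beyond the spread between pairs for the MARCKS list at day 5 (-0.032 with normexp), the naive list at day 2 (-0.51 with GAPDH scaling, -0.64 with normexp), monocytes at day 2 (0.23 with normexp) and neutrophils at day 5 (0.59 with normexp). GAPDH scaling moved the median of all probes at day 2 to -0.23 and normexp moved it to 0.16. The cause of these shifts was not tested.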
